A study of Mus musculus with 2 samples.

Results

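Thyroid hormone acts in the heart through nuclear receptors, and the 8 genes described here make up the receiving end of that signal. They are the thyroid hormone receptors Thra and Thrb, the retinoid X receptors Rxra, Rxrb and Rxrg, the deiodinases Dio1 and Dio2, and the transporter Slc16a10. They were taken by symbol and gene identifier from the 55536 genes of the deposited tables, where 49 annotated transcripts belonged to them.

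The series measured total RNA of the whole heart of female B6CASTF1/J mice, a hybrid of 2 inbred mouse strains, at 25 days of age. The RNA was depleted of ribosomal RNA, 300 ng went into each library, ERCC spike-ins were present in both, and the labels call the 2 libraries biological replicates 1 and 2. The 2 samples carry the same donor label but separate animal numbers and were treated as 2 animals, so a spread between them may in part be technical. No treatment, genotype or second tissue was compared, so every value below is a description and no test between conditions was made.

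In the cell, the transporter carries thyroid hormone across the membrane, the deiodinases turn thyroxine into the active hormone T3, and the receptors bind DNA, mostly as pairs with a retinoid X receptor. The receptors repress their target genes with corepressors when T3 is absent and activate them with coactivators when it is bound. In heart muscle this system is known for setting the myosin heavy chain type, calcium handling and heart rate, and Thra is known as the main receptor gene there.

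The libraries held 43190646 and 42954475 expected counts, of which 0.518% and 0.544% were spike-ins. Expected counts are the reads assigned to a gene, and TPM is that number corrected for transcript length and scaled to a fixed library total. A gene was called detected at 1 TPM in both animals, which 11947 genes met. The 6 cardiomyocyte markers examined had mean levels from 386 TPM (Ryr2) to 9642 TPM (Myh6). Follicle genes of the thyroid were low, with thyroglobulin (Tg) at 1.26 and 0.79 TPM. In replicate 2 all 7 hepatocyte markers were more than 1.5-fold above replicate 1, with a summed level of 27.0 TPM against 2.83 TPM, and Alb had 907 counts against 2. These values are given again beside the genes they move with. In whole tissue, fewer cells of a type and less RNA per cell cannot be told apart.

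The coding forms of Thra differ at the end of the protein, which decides whether the product binds hormone. Alpha-1 (Thra-202, 410 residues) is the hormone-binding receptor, and alpha-2 (Thra-201, 492 residues) ends in a different tail and is known not to bind T3. The GENCODE M21 annotation of mm10 also holds Thra-203, a coding model with no annotated stop codon. All 3 share their sequence up to base 98764405 of chromosome 11, on the plus strand. The sequences below show the point where they part. The 30 shared bases, chr11:98764376-98764405, are in lower case, and the bases after the junction in each form are in capitals.
Thra-202 (alpha-1), capitals chr11:98764406-98764528: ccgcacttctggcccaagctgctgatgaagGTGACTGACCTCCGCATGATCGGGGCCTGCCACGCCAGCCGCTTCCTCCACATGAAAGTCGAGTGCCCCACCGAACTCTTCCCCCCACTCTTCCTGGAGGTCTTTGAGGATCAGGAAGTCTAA
Thra-201 (alpha-2), capitals chr11:98768157-98768306: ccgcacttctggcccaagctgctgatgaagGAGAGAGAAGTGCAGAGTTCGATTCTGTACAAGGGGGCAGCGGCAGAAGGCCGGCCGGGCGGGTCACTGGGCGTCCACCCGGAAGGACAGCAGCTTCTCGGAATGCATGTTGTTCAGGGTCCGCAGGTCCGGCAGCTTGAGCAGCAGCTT
Thra-203, capitals chr11:98768274-98768372: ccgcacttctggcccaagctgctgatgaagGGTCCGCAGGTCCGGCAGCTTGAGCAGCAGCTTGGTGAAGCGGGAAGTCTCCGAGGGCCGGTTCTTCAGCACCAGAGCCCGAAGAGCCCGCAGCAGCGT
Alpha-1 read straight on through the exon, its own bases starting with GT, the bases of a splice donor, and reached the stop codon TAA after 40 codons of its own. Alpha-2 used that donor, removed 3751 bases, and continued for 122 codons of its own, bases 98768157 to 98768522 of the distal exon. Thra-203 spliced to the same last exon 117 bases (39 codons) further in. Its last exon matched the alpha-2 exon base for base from there and held 0 in-frame stop codons in its 43 whole codons, up to where the model ends. The first 370 codons are common to alpha-1 and alpha-2.

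Thra (ENSMUSG00000058756.13, chromosome 11, 98740638 to 98769006, plus strand) had the highest level of the 8 genes, with 39.4 TPM in the first animal and 40.5 TPM in the second. The mean was 39.96 ± 0.750 TPM (SD, n = 2), from 2707 and 2853 expected counts. That level ranked 1538 of the 11947 detected genes, above 87.1% of them. A second deposited quantification, made from the reads of 1 FASTQ file per library and called read-based here, gave 45.5 and 48.6 TPM. The first is called alignment-based.

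Alpha-1 was the leading Thra transcript in both animals and in both quantifications. It had 18.2 and 19.2 TPM, which was 46.0% and 47.5% of the gene in the deposited percent column. Alpha-2 had 14.7 and 13.9 TPM, or 37.2% and 34.4% of the gene. The deposited credibility intervals of the 2 forms did not overlap in either library: 16.4 to 19.2 TPM for alpha-1 against 13.1 to 15.6 TPM for alpha-2 in replicate 1, and 17.4 to 20.2 TPM against 12.5 to 14.8 TPM in replicate 2. The form that does not bind hormone thus made up 44.7% and 42.1% of alpha-1 plus alpha-2, a mean of 43.4 ± 1.84% (SD, n = 2), and 46.2% and 44.4% by the read-based values. The bases annotated for a single Thra transcript number 706 for alpha-1 and 720 for alpha-2. The whole last exon of alpha-2, 850 bases, is absent from alpha-1, and part of it is shared with Thra-203.

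The third coding model, Thra-203, had 4.79 and 5.80 TPM, or 12.2% and 14.3% of the gene, on 185 and 231 expected counts. Its credibility intervals ran from 2.79 to 6.70 TPM and from 3.98 to 7.59 TPM, below those of alpha-2. No base of Thra-203 was annotated for it alone, since its exons lie within those of alpha-2, and it is told apart only by the junction printed above. If its level is counted with alpha-2, a grouping chosen after the values were seen, the share of forms ending in the distal exon became 51.7% and 50.7%, a mean of 51.2 ± 0.722% (SD, n = 2), against 50.5% and 51.4% by the read-based values. Alpha-1 and the distal-exon forms were then nearly level. The other 6 transcripts were minor. Thra-204 had 0.54 and 0.66 TPM, Thra-206 0.54 and 0.34 TPM, Thra-207 0.54 and 0.55 TPM, and Thra-205 0.21 and 0 TPM. Thra-208 and Thra-209 were listed at 0 in both animals.

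**Figure D1:**
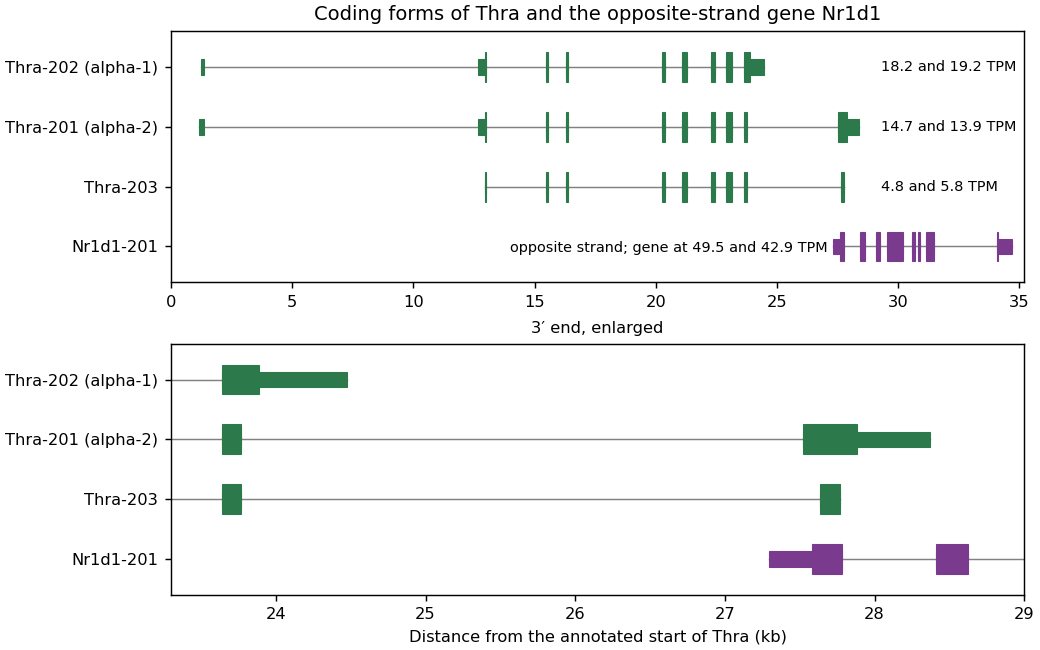
Exon maps of the coding forms of Thra and of Nr1d1, by distance from the annotated start of Thra in kb. Tall boxes are coding, low boxes untranslated, lines are introns, and the numbers are TPM in replicates 1 and 2. The lower panel enlarges the 3′ end, where the last exon of alpha-2 and of Thra-203 lies opposite the last exon of Nr1d1, and that of alpha-1 does not.

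The distal exon of Thra lies opposite Nr1d1 (ENSMUSG00000020889.11, chromosome 11, 98767932 to 98775333, minus strand), the gene of the circadian repressor REV-ERB alpha. The 2 genes overlap over 1075 bases. Within the last exon of alpha-2, 98768157 to 98769006, 263 of 850 bases lie opposite an exon of Nr1d1. All 130 bases of the last exon of Thra-203 do so, and none of alpha-1. Nr1d1 was at 49.5 and 42.9 TPM, 3.38 and 3.08 times the level of alpha-2. The spike-in label describes stranded libraries, but no source used here states that the counting used strand. Without strand, reads of Nr1d1 and of the distal Thra exon cannot be told apart, so the alpha-2 and Thra-203 levels and that of Nr1d1 are uncertain in the overlap. In TPM, Nr1d1 and alpha-2 were lower in replicate 2 and Thra-203 was higher. The credibility intervals of alpha-2 overlapped between the libraries, and so did those of Thra-203. Before scaling between the libraries, alpha-2 had 1165 and 1145 expected counts, and Nr1d1 had 4319 and 3864. How far reads of Nr1d1 entered the Thra values was not tested.

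Thrb (ENSMUSG00000021779.17, chromosome 14, 17660261 to 18038090, plus strand) was at 10.1 and 10 TPM, a mean of 10.1 ± 0.0849 TPM (SD, n = 2), from 1307 and 1127 counts. It ranked 5353 among detected genes, above 55.2% of them. Thra exceeded it by 1.98 ± 0.04 on the log2 scale with 0.1 TPM added to each value (SD, n = 2), or 3.97 ± 0.108-fold in TPM without it. By the read-based values, where Thrb was at 13.3 and 14.4 TPM, the difference was 1.76 ± 0.02. Set against all of Thrb, the hormone-binding alpha-1 form alone was 1.79 and 1.92 times as high, and 1.60 and 1.54 times by the read-based values. Thra and Thrb together summed to 49.6 and 50.5 TPM.

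The protein forms of Thrb differ at the start. Beta-1 (461 residues, Thrb-201 and Thrb-203) is the widely expressed form, and beta-2 (475 residues, Thrb-202) is best known from the pituitary and the retina. Thrb-202 was the leading transcript in both animals in the alignment-based table, with 4.19 and 3.67 TPM (41.4% and 36.7% of the gene) and 66.0% and 69.3% of the gene's counts. The beta-1 transcripts together had 4.38 and 3.07 TPM, or 43.3% and 30.7%, a mean of 37.0 ± 8.90% (SD, n = 2). In that table neither form was above the other in both animals. In the read-based table beta-1 was, with 5.79 and 5.12 TPM against 4.47 and 3.92 TPM for beta-2. The bases annotated for Thrb-202 alone number 2204, and 1531 of them lie at the 3′ end, 325 in the coding part and 348 in the 5′ UTR, while Thrb-201 and Thrb-203 have 0 bases of their own. The tables give a value per transcript and not where its reads lay, so counts of Thrb-202 do not show how much of them came from the beta-2 start.

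Short models took the rest of Thrb. In the alignment-based table the 4 transcripts with no complete coding sequence held 15.3% and 32.6% of its TPM on 2.45% and 5.59% of its counts. The gene TPM of Thrb, and the fold between Thra and Thrb, therefore rest in part on few counts. Thrb-207, an incomplete coding model, had 11.4% and 18.4% of the gene in the alignment-based table and 0 TPM in the read-based one. Thrb-205, a fragment of 375 bases, was the leading transcript of replicate 2 in the read-based table, with 4.01 TPM on 12.8 estimated counts, and had 0 TPM there in the alignment-based table. The order of the Thrb transcripts therefore depended on the quantification.

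Among the retinoid X receptors, the shared partners of thyroid hormone and many other nuclear receptors, Rxrg led. Rxrg (ENSMUSG00000015843.10, chromosome 1, 167598384 to 167639623, plus strand) was at 24.6 and 23.1 TPM, a mean of 23.8 ± 1.07 TPM (SD, n = 2), and above 78.1% of detected genes. Rxra (ENSMUSG00000015846.14, chromosome 2, 27676440 to 27762957, plus strand) was at 17.7 and 16.8 TPM, a mean of 17.3 ± 0.587 TPM (SD, n = 2). Rxrb (ENSMUSG00000039656.17, chromosome 17, 34031812 to 34038399, plus strand) was at 16.2 and 13.7 TPM, a mean of 14.9 ± 1.78 TPM (SD, n = 2). Rxrg lay above the other retinoid X receptors in both animals and in both quantifications. The ranges of Rxra and Rxrb did not overlap in the alignment-based values but did in the read-based ones, where Rxra was at 18.4 and 17.4 TPM and Rxrb at 18.1 and 15.8 TPM.

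Of the summed retinoid X receptor TPM, 58.4 and 53.6 in the 2 animals, Rxrg gave 42.0% and 43.0%. Rxra gave 30.3% and 31.4%, and Rxrb 27.7% and 25.5%. The mean shares were 42.5 ± 0.704%, 30.8 ± 0.845% and 26.6 ± 1.55% (SD, n = 2). By the read-based values they were 42.2%, 29.7% and 28.1%, in the same order. The summed levels of the retinoid X receptors, 56.0 ± 3.44 TPM, and of the thyroid hormone receptors, 50.0 ± 0.665 TPM (SD, n = 2), were close to each other. By the read-based values the means were 60.3 ± 3.37 and 60.9 ± 3.00 TPM (SD, n = 2), in the reverse order. The thyroid hormone receptor sum includes alpha-2 and transcripts with no complete coding sequence.

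**Figure D2:**
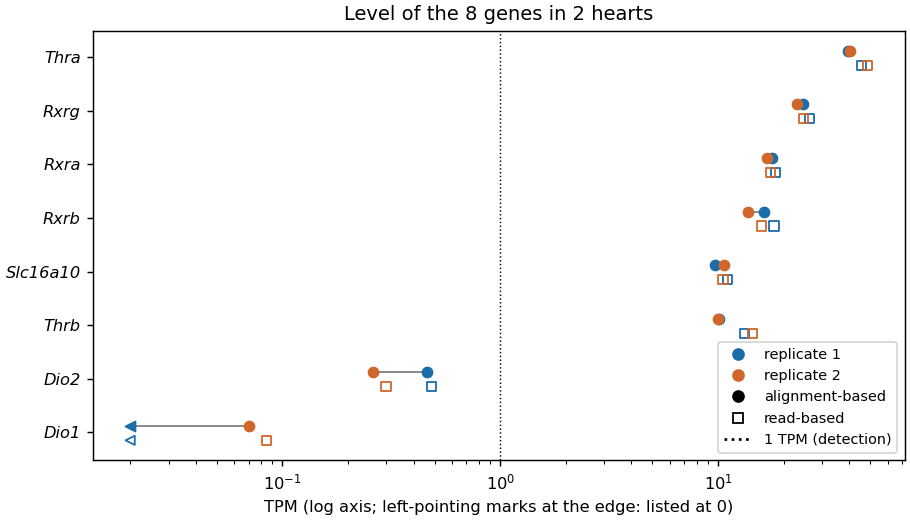
Level of the 8 genes in TPM on a log axis, with replicate 1 in blue and replicate 2 in orange, filled marks for the alignment-based and open squares for the read-based quantification, and triangles at the edge for values listed at 0. Thra is highest, 6 genes lie right of the 1 TPM line in both animals, and Dio2 and Dio1 lie left of it.

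Rxrg has a long and a short protein form with separate start sites. The long form (463 residues, Rxrg-201, Rxrg-203 and Rxrg-204) begins at the upstream site, and the short form (340 residues, Rxrg-202, often called gamma-2) begins at an annotated start at base 167618309 and lacks the first part of the long protein. Rxrg-202 had 23.7 and 22.3 TPM, or 96.6% of the gene in each animal. The long forms together had 0.84 and 0.78 TPM. The read-based table again put Rxrg-202 first, with 76.6% and 76.0%, but gave the long forms 23.4% and 24.0%, most of it in Rxrg-204. Rxrg-202 carries 187 bases of its own, all in the 5′ UTR.

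The promoter windows of the 2 Rxrg start sites are shown because most of the gene's TPM, in both quantifications, was assigned to the transcript that begins near the downstream one. Both are the 250 bases before a RefSeq transcript start on GRCm38.p6, plus strand. Capitals mark AGGTCA, the half-site that receptors of this family bind, searched on both strands (TGACCT on the other) with no overlap with another motif.
Rxrg upstream, chr1:167598112-167598361: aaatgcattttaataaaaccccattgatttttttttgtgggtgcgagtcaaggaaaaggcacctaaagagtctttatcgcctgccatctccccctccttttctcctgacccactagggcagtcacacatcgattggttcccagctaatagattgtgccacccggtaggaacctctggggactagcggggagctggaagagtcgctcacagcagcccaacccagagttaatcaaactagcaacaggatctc
Rxrg downstream, chr1:167618015-167618264: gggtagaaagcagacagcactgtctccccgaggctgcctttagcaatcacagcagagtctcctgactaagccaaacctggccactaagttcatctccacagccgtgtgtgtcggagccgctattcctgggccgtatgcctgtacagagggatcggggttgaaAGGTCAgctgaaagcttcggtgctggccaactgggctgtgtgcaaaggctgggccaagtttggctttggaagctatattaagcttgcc
The upstream window held 0 copies of AGGTCA and the downstream window 1, and neither held TATAAA on either strand. Their GC content was 49.2% and 55.2%. AGGTCA or its complement was present in 14.02% of the 32851 RefSeq promoter windows of this length, 4607 of them, so a match is a description of these letters and not of a bound site. RefSeq windows were matched for 7 of the 8 genes, all but Thra, 11 windows in all. AGGTCA was also found in the downstream window of Rxra, in 2 copies, and in the upstream window of Thrb, in 1. TATAAA, present in 12.4% of all windows, was found in the window of Dio2 and in the downstream window of Thrb, in 1 copy each.

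Rxra-201 was the leading Rxra transcript throughout, with 14.2 and 13.2 TPM, or 80.3% and 78.3% of the gene. With Rxra-206, the 467-residue form held 85.4% and 89.3%. The 439-residue form, whose transcripts start further downstream, had 1.28 TPM in replicate 1, all in Rxra-203, and was listed at 0 in replicate 2. The deposited credibility intervals of Rxra-203, 0.0765 to 1.73 TPM in replicate 1 and up to 0.812 TPM in replicate 2, overlapped. Rxra-204, an incomplete model, took 7.34% and 10.8% of the gene in the alignment-based table and 0 in the read-based one.

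The Rxrb forms could not be ranked from these tables. Rxrb-201 (524 residues) had 33.4% and 36.6% of the gene and Rxrb-202 (410 residues) 31.9% and 35.3% in the alignment-based table. The 520-residue form, Rxrb-207, had 9.71% and 10.1%, and the 414-residue form, Rxrb-203, was listed at 0. In the read-based table Rxrb-202 led with 26.7% and 41.5%, Rxrb-207 followed with 25.3% and 20.1%, Rxrb-203 had 18.4% and 8.18%, and Rxrb-201 had 6.11% and 12.9%. These 4 transcripts have between 0 and 4 bases of their own. Rxrb-204, a retained intron model, had 13.1% and 10.3% of the gene. With the other retained intron models, 6 in all, it held 25.0% and 18.1% of the TPM on 9.07% and 6.17% of the counts. The gene TPM of Rxrb, and its share among the retinoid X receptors, therefore rest in part on few counts.

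**Figure D3:**
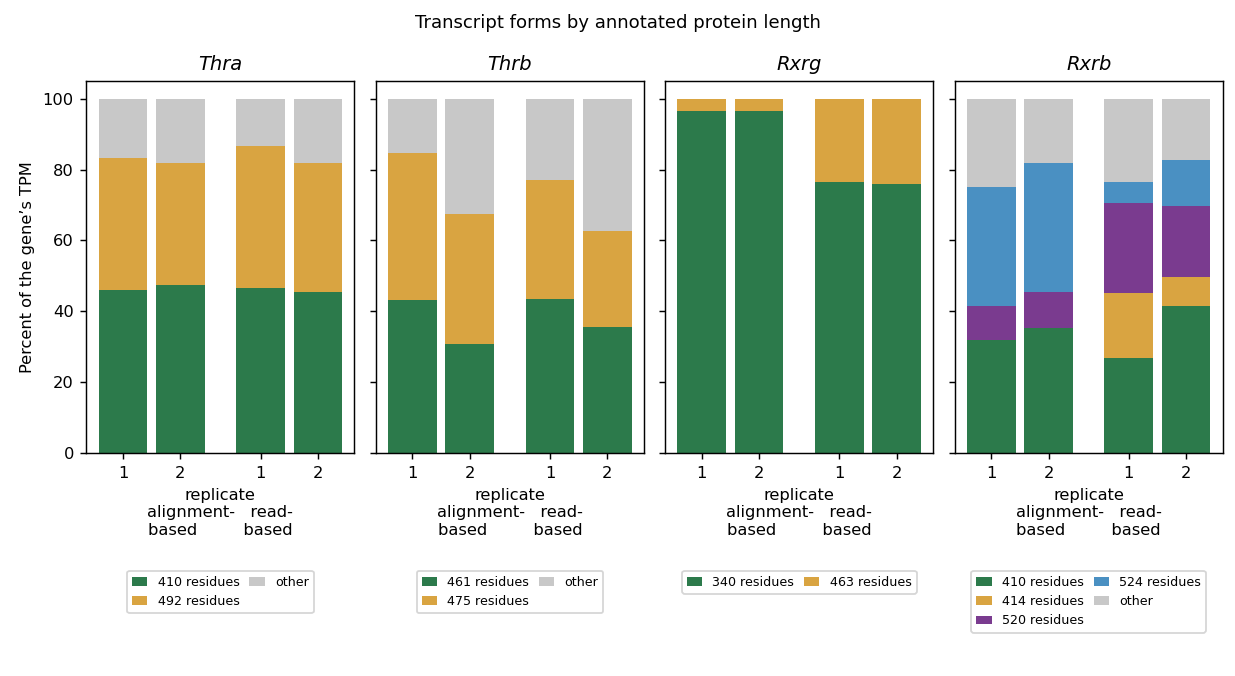
Percent of each gene's TPM by annotated protein length, for Thra, Thrb, Rxrg and Rxrb, in replicates 1 and 2 and both quantifications; grey holds transcripts with no complete coding sequence. The Thra bars are alike in all 4 columns, the short Rxrg form leads in all 4, and the Thrb and Rxrb bars change with animal or quantification.

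The deiodinases, selenoenzymes that remove iodine from thyroid hormone, were the lowest of the 8 genes and neither was detected at 1 TPM. Dio2 (ENSMUSG00000007682.6, chromosome 12, 90724552 to 90738438, minus strand), which makes T3 inside cells, was at 0.46 and 0.26 TPM, a mean of 0.36 ± 0.141 TPM (SD, n = 2), from 88 and 52 counts. All of it was in its only annotated transcript, which encodes 266 residues. Dio1 (ENSMUSG00000034785.14, chromosome 4, 107291465 to 107307169, minus strand), the deiodinase typical of liver, kidney and thyroid, had 0 counts in replicate 1 and 4 counts (0.07 TPM) in replicate 2. A count of 0 allows up to 3 counts, here 0.0558 TPM in replicate 1, a limit that covers counting error only. All 4 counts were in the transcript that encodes 257 residues. The deposited posterior means of Dio1, 0.47 and 0.53 TPM, with credibility intervals of 0.159 to 0.825 and 0.220 to 0.887 TPM, lay above these TPM values.

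The 4 counts of Dio1 were in the library with the higher hepatocyte markers, and whether they came from liver RNA was not tested. Brown fat is a known site of Dio2, and of its markers Ucp1 was at 3.14 and 5.83 TPM, Cidea at 17.7 and 16.4 TPM and Cox8b, which heart muscle also makes, at 991 and 1031 TPM. Ucp1 was 1.98-fold higher in replicate 2 (95% interval 1.64 to 2.41), the animal with the lower Dio2 value. Markers of several other cell types were lower in replicate 2, as Dio2 was. All 3 smooth muscle markers were, with ratios of replicate 2 over replicate 1 from 0.733 to 0.813, and they summed to 180 and 131 TPM. So were all 4 macrophage markers (0.736 to 0.915), all 4 endothelial markers (0.891 to 0.955) and 4 of 5 fibroblast markers (0.811 to 1.05 over the 5). Of markers with a ratio, 2 of 3 erythroid, 3 of 4 fast skeletal muscle and 3 of 3 thyroid follicle ones were lower too, some on few counts. All 6 cardiomyocyte, all 3 white adipocyte (1.38 to 4.13) and both neuron markers with a ratio were higher in replicate 2. The part of these cell types in the Dio2 level was not tested.

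Slc16a10 (ENSMUSG00000019838.11, chromosome 10, 40033532 to 40142258, minus strand), also known as Mct10 or Tat1, carries thyroid hormone and aromatic amino acids. It was at 9.68 and 10.6 TPM, a mean of 10.1 ± 0.651 TPM (SD, n = 2), from 1130 and 1250 counts. Its range overlapped that of Thrb, and the read-based values put Thrb higher, so these neighbours were not ordered. The leading transcript, which encodes 512 residues, had 50.4% and 46.8% of the gene. A shorter form of 320 residues had 28.6% and 34.7%, with 1173 bases of its own. Its credibility intervals, 2.24 to 3.19 and 3.10 to 4.19 TPM, met only at their edges. An incomplete model of 553 bases had 13.9% and 13.0%.

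Between neighbours in the whole order, the level of Thra was 1.68 times that of Rxrg, Rxrg 1.38 times Rxra, Rxra 1.16 times Rxrb, and Rxrb 1.47 times Slc16a10. The ranges of the 2 animals were apart at each of these steps in the alignment-based values. Thrb was 27.9 times Dio2. Among the 49 nuclear receptor genes, of which 29 were detected, Thra was the fourth highest, after Esrra (57.4 TPM), Nr1d1 (46.2 TPM) and Nr1d2 (41.9 TPM), and next above the glucocorticoid receptor gene Nr3c1 (28.3 TPM). Its range overlapped that of Nr1d2, and it was above Nr1d2 in the read-based order. Rxrg was sixth, between Nr3c1 and Nr2f6 (21.4 TPM). Rxra was in place 10, between Esrrg (17.3 TPM) and Nr1h2 (16.8 TPM), and Rxrb in place 12, between Nr1h2 and Ppard (14.7 TPM). Thrb was in place 16, between Nr3c2 (10.2 TPM) and Nr2c2 (9.85 TPM). The ranges of Rxra, Rxrb and Thrb overlapped those of both neighbours.

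**Figure D4:**
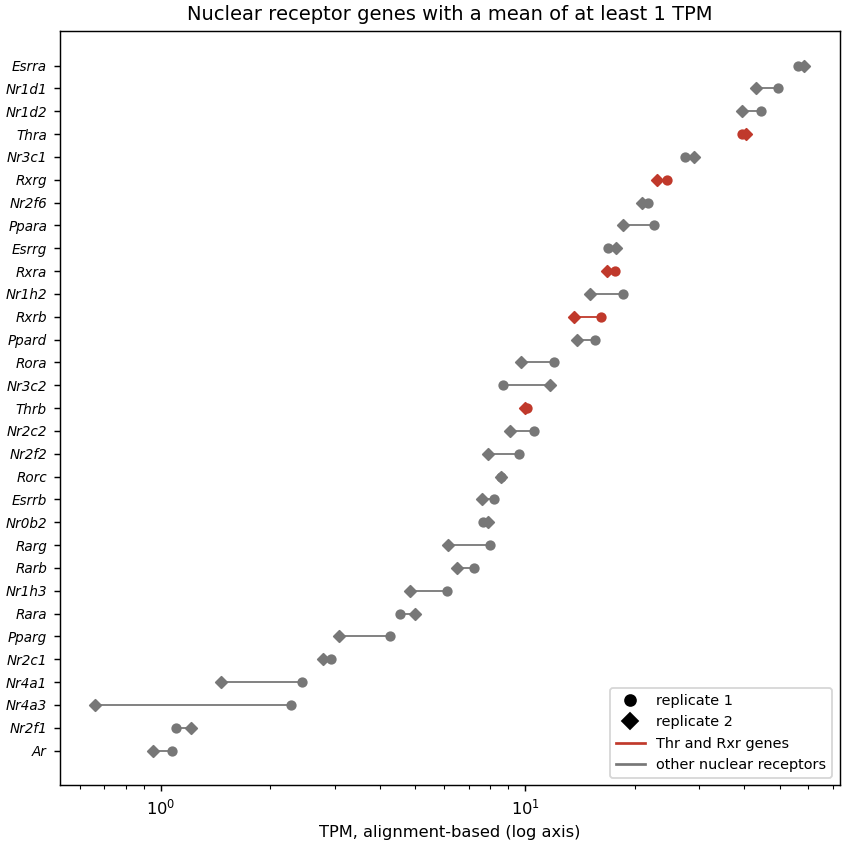
Nuclear receptor genes with a mean of at least 1 TPM, ordered by mean, with replicate 1 as a circle and replicate 2 as a diamond on a log axis of TPM. The thyroid hormone and retinoid X receptor genes, in red, lie between 10 TPM (Thrb) and 40.5 TPM (Thra).

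To ask how firmly 2 animals fix these levels, counts were scaled between the libraries by TMM factors and their ratio was taken, replicate 2 over replicate 1. Dio2 was the only one of the 8 genes past 1.5-fold. It was 1.64-fold higher in replicate 1 (95% interval 1.15 to 2.36), from 88 counts against 52. Of the 15839 genes averaging 10 counts or more per library, 9.65% passed 1.5-fold, 3.62% with replicate 2 higher and 6.04% with replicate 1 higher. Among genes with 10 to 100 counts the share was 28.2%. Dio2, at a mean of 70 counts, lies in the upper part of that band, and no share was taken for genes near its count alone. From a mean of 100 counts on, the share was 2.06%, and none of the 6 detected genes passed. A fold of 2 was passed by 3.2% of the genes tested. Dio1 was below the count minimum. The intervals cover counting error only, and reads are not independent molecules.

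Thra had a ratio of 1.09 (95% interval 1.03 to 1.15) and Slc16a10 of 1.14 (1.05 to 1.24), both above 1 beyond counting error. All 6 cardiomyocyte markers were higher in replicate 2 as well, with ratios from 1.07 to 1.16, and their part in these values was not tested. Thrb had a ratio of 0.890 (0.821 to 0.965), below 1 beyond counting error, although its TPM was nearly equal in the animals. In TPM its complete coding forms were lower in replicate 2, at 3.07 against 4.38 for beta-1 and 3.67 against 4.19 for beta-2. The Thrb transcripts with no complete coding sequence were higher there, at 3.26 against 1.55 TPM. Rxra, at 1.01 (0.954 to 1.07), Rxrg, at 1.00 (0.925 to 1.08), and Rxrb, at 0.953 (0.873 to 1.04), had intervals that held 1. Scaling by the spike-ins lowers every log2 ratio by 0.11. Under it the intervals of Thra (0.958 to 1.06) and Slc16a10 (0.977 to 1.15) held 1, those of Rxra (0.885 to 0.991) and Rxrb (0.810 to 0.965) did not, and 4 of the 6 cardiomyocyte markers were higher in replicate 2. Under it and each other scaling tried, the ratios of Rxra and Rxrg lay below 1, and no other gene changed direction.

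**Figure D5:**
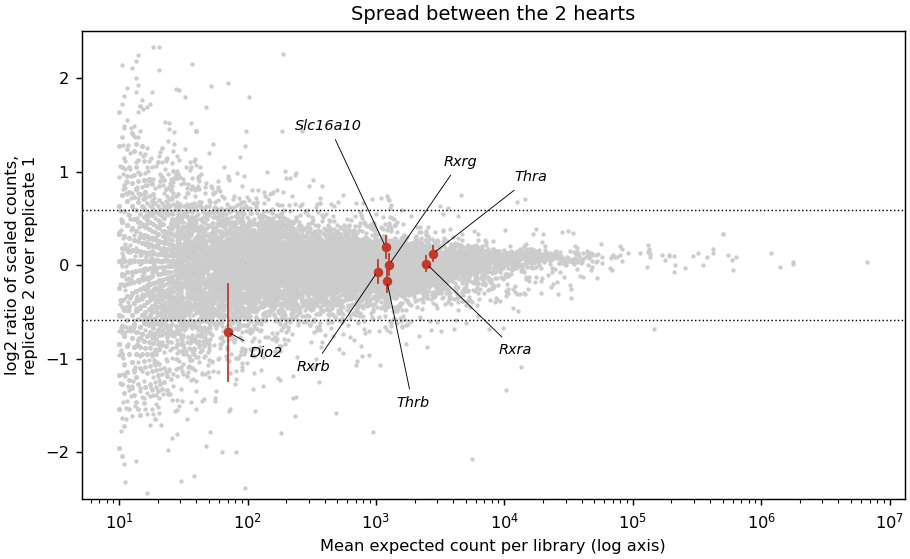
Log2 ratio of scaled counts, replicate 2 over replicate 1, against the mean expected count per library on a log axis, for the genes tested (grey; 77 lie outside the plot or have 0 in a library) and 7 of the 8 genes (red, bars are 95% counting intervals). Dotted lines mark 1.5-fold, and of the red points Dio2 alone lies beyond them.

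The rest of the pathway is given from gene lists, beside a median log2 ratio of 0.01 over all genes tested. Of those, 9.65% passed 1.5-fold, as did 2.06% of the genes averaging 100 counts or more. In hormone transport and metabolism 3 of 8 genes were detected. Among them were Slc3a2 (14.3 TPM) and Slc7a5 (1.22 TPM), the heavy and a light chain of an amino acid transporter that also carries thyroid hormone. Slc7a8 was at 0.81 TPM, the brain transporter Slco1c1 at 0.145 TPM, and Crym, a T3-binding protein of the cytosol, at 0.17 TPM. Dio3, which inactivates T3, had 0 counts in both animals. Ttr, the plasma carrier of thyroxine made in liver, was at 0.11 and 2.11 TPM. It was the 1 gene of 6 tested past 1.5-fold, higher in replicate 2, and is itself a hepatocyte marker. All 5 genes of selenoprotein synthesis, which the deiodinases need, were detected, and none passed the fold. They were Pstk (17.1 TPM), Sephs2 (11.7 TPM), Secisbp2 (5.05 TPM), Eefsec (2.92 TPM) and Sepsecs (2.78 TPM).

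The coregulators of the receptors were detected throughout. The 9 coactivators had a median of 17.8 TPM, led by Thrap3 (42.8 TPM), the methyltransferase Prmt1 (41.6 TPM) and Carm1 (19.99 TPM). The 7 corepressors had a median of 14.7 TPM. Ncor1, a corepressor that holds unliganded receptors on their genes, was at 46.7 TPM and Tbl1xr1 at 27.0 TPM. Hdac3, the deacetylase of that complex, was at 14.7 TPM, Tbl1x at 13.1 TPM, Sin3a at 12.9 TPM and Gps2 at 9.64 TPM. None of the 16 coregulators passed 1.5-fold between the animals, against 2.06% of all genes averaging 100 counts or more. A list of this size is too short to tell none from that share.

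Genes known to be raised by T3 in heart or other tissues were all detected, 12 of 12, with a median of 25.9 TPM. They were led by Myh6, the fast cardiac myosin heavy chain (9642 TPM), the calcium pump Atp2a2 (4673 TPM) and the calcium channel Ryr2 (386 TPM). Of 6 genes known to be lowered by T3, 5 were detected: the calcium pump inhibitor Pln (2509 TPM), the slow myosin heavy chain Myh7 (899 TPM), the exchanger Slc8a1 (173 TPM), and the cyclases Adcy6 (83.8 TPM) and Adcy5 (21 TPM). Tnni1, the slow troponin I of the fetal heart, was at 0.86 TPM. Myh6 and Myh7 are close paralogs, and whether the counting split reads between them was not tested. By the read-based values their means were 8790 TPM for Myh6 and 1940.5 TPM for Myh7, so the level of Myh7 depended on the quantification. None of the 18 target genes passed 1.5-fold, and their median log2 ratios were 0.07 for the raised and 0.06 for the lowered list. Among all genes averaging 100 counts or more 2.06% passed, and so short a list cannot tell none from that share. With a single group, these levels say nothing of hormone action in these animals.

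Of 14 other receptors that pair with retinoid X receptors, 9 were detected, with a median of 4.18 TPM over the list. The fatty acid receptors Ppara (20.6 TPM) and Ppard (14.7 TPM) and the oxysterol receptor Nr1h2 (16.8 TPM) were highest. Of 12 tested, Nr4a1, an immediate early gene, was 1.66-fold higher in replicate 1 (95% interval 1.31 to 2.11), and Nr1h4, the bile acid receptor, passed the fold the other way on 10 and 15 counts. In retinoid metabolism 5 of 14 genes were detected, led by Dhrs3 (39.0 TPM), Aldh1a1 (6.70 TPM) and Aldh1a2 (3.22 TPM), the latter enzymes of retinoic acid synthesis. Of 9 tested, Rbp4, a plasma retinol carrier made in liver, was 3.23-fold higher in replicate 2 (95% interval 2.00 to 5.42), the library with the higher hepatocyte markers. Whether liver RNA gave that difference was not tested. Lrat was 1.56-fold higher in replicate 1 (95% interval 1.16 to 2.11). Over all genes tested 9.65% passed the fold, and 28.2% of those with 10 to 100 counts, where Nr1h4, Rbp4 and Lrat lie.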

How the data were processed

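Total RNA of the heart was measured in 2 libraries of 1 group. Expected counts and, in the read-based tables, estimated counts were deposited as assigned reads per feature without normalization, per the file headers. The authors deposited TPM computed across all entries of a library, per the file headers. The deposited score columns hold credibility interval bounds on TPM, of a level not stated, per the file headers. The deposited percent column gives each transcript's share of its gene, per the file headers. Genome mm10 and GENCODE M21 are named in the deposited listings, and for the aligner and counter the sources used here name none. Read-based transcripts were summed to genes.

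The genes and lists were chosen with earlier results of these data known. The text names all 8 genes, every Thra transcript, transcripts of at least 10% of another gene, Nr1d1, of each list the 3 highest, those past 1.5-fold and all of short lists, neighbours among nuclear receptors, and markers beside a gene. Counts were scaled with TMM (edgeR 4.0.16, R 4.3.3), and ratios carry exact Clopper-Pearson 95% intervals. Both steps were checked on simulated Poisson counts only, which hold no spread between animals and so say nothing of it. Spike-ins were left out of the scaling. Tables were handled with pandas 2.3.3 and numpy 2.4.6 in Python 3.11.15, intervals came from scipy 1.17.1, and matplotlib 3.10.9 drew the figures. Alternatives tried were posterior mean TPM, read-based values, a TPM total over protein-coding nuclear genes only, other thresholds, pseudocounts, minima and folds, size factors of DESeq2 1.42.0, total and spike-in counts, and each animal left out. Some list members are not reported here. Read alignments were not analysed here.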

Additional observations from a re-analysis of the deposited data

How the results depend on the processing

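The 6 detected genes numbered 6 under every alternative tried, thresholds of 0.5 and 2 TPM included. Thra exceeded Thrb by 1.98 on the log2 scale, by 1.76 with the read-based values, 1.94 with posterior mean TPM and 1.89 with a pseudocount of 1 TPM, and by 1.95 to 2.01 with an animal left out. The Rxra share of 30.8% became 29.7% with the read-based values and 30.3% to 31.4% with an animal left out. The alpha-2 share of 43.4% became 45.3% with the read-based values, 45.6% with expected counts, 51.2% with Thra-203 counted as alpha-2, and 42.1% to 44.7% with an animal left out. The number of genes past 1.5-fold was 1, became 2 with no count minimum, which adds Dio1, and 0 at a minimum mean count of 100 or at a fold of 2, and was 1 under each other scaling. That number could not be had with an animal left out. TPM rescaled to protein-coding nuclear genes was 2.56 to 2.60 times the deposited TPM over the 8 genes, and read-based TPM 1.04 to 1.38 times. The posterior mean put Dio1 at 0.5 TPM against 0.035 TPM. Depth limits Dio1 and Dio2 most, with at most 88 counts. No paired analysis was possible because the series has 1 group only.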
